A study of Mus musculus with 2 samples.

Results

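Mir702, Mir877, Mir1224, Mir320 and Mir484 are microRNA genes whose hairpins are released without the nuclear enzyme Drosha. They were chosen by name, 3 as mirtrons and 2 as Drosha-independent genes, and all 5 were found among the 1973 genes counted. The small RNA libraries came from 2 newborn mouse hearts, 1 library per heart, which form 1 group. Each library was made from heart tissue of a B6NCrl pup at day 0 after birth, with no treatment named. Replicate 2 was pup 3 and replicate 1 was pup 1. Both samples carry the same donor identifier in the labels. That the hearts came from separate animals rests on the pup numbers, and so does the meaning of every SD with n = 2 and of every ratio between hearts. The sex of the pups was not collected. Total RNA was the starting material, and molecules under 30 nt were sequenced. As each heart gave 1 library, the animal and the library preparation cannot be told apart.

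A usual microRNA is cut by Drosha in the nucleus and then by Dicer in the cytoplasm. A mirtron skips the Drosha cut, because its hairpin is a short intron that the spliceosome cuts out and that folds after debranching. Its 5′ arm therefore starts at the 5′ splice site of the host gene, and its 3′ arm lies at the 3′ splice site, over the pyrimidine tract. Mir320 and Mir484 take another route, in which RNA polymerase makes a short transcript whose 5′ end is the hairpin itself, with the methylguanosine cap still on it. Dicer then cuts both kinds. In mouse heart, Mir320 has been tied to ischaemic injury through the small heat shock protein Hspb6, and Mir484 to mitochondrial fission through Fis1.

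The 3 mirtron hairpins are shown to make the splice sites visible. Capitals mark the first and the last 2 bases of the annotated intron where the hairpin holds them. The sequences are those of RefSeq on GRCm38.p6, where 4 of the 5 genes were matched, all but Mir320.
Mir702: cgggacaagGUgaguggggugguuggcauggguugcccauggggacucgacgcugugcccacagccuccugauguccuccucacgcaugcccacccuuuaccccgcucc
Mir877: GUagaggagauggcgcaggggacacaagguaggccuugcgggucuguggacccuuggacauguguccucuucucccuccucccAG
Mir1224: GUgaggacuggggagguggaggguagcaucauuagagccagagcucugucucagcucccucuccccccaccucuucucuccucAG
In Mir877 and Mir1224 the hairpin opened with GU and closed with AG, the bases that open and close most introns. In Mir702 the GU stood 9 bases in, and the hairpin stopped 2 nt short of the end of the intron.

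Mir484 is shown for contrast, with its mature microRNA in capitals. It lies on the 5′ arm, and only 4 bases of the 67 nt hairpin come before it.
Mir484: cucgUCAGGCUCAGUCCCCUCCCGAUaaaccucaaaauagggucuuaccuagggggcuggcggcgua

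The mature microRNAs are printed with the seed, bases 2 to 8, in capitals, since the seed sets most of the pairing with target messages.
mmu-miR-702-5p: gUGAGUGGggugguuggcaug
mmu-miR-702-3p: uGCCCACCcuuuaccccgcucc
mmu-miR-877-5p: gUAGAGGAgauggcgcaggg
mmu-miR-877-3p: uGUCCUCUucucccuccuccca
mmu-miR-1224-5p: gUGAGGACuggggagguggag
mmu-miR-1224-3p: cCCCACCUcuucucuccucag
mmu-miR-484: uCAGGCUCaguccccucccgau
mmu-miR-3102-5p: gUGAGUGGccaggguggggcug
No 2 of the 7 mature sequences of the 4 matched genes shared a seed. Among the other mature mouse microRNAs of the RefSeq table, only miR-3102-5p had a seed in common with any of them, that of miR-702-5p. Its gene Mir3102 also spans an intron, as described further on. The match is in the letters at the start of both introns, which hold the 5′ splice site, and says nothing of shared targets in these hearts.

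GENCODE M21, a later release of the gene annotation used for counting, placed the 3 mirtrons on introns to within a few bases. Mir877 (ENSMUSG00000077931.1, chr17:35960730-35960814 of mm10, minus strand) covered an 85 nt intron of Abcf1 from end to end, with 0 nt left over on either side. Abcf1 encodes an ATP-binding protein that takes part in translation initiation. Mir1224 (ENSMUSG00000080669.1, chr16:20604452-20604536, plus strand) covered an 85 nt intron of Vwa5b2 in the same way. Mir702 (ENSMUSG00000076240.1, chr5:136991433-136991541, plus strand) reached 9 nt into the exon before a 102 nt intron of Plod3 and ended 2 nt before the exon after it. Plod3 encodes an enzyme that hydroxylates and glycosylates lysines of collagen. Coding sequence adjoined all 3 introns on both sides. The 5′ arm of each began at base 1 of the intron. The 3′ arm ended 2 nt before the end of the intron in Mir702, 1 nt before it in Mir877 and at the end itself in Mir1224.

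**Figure D1:**
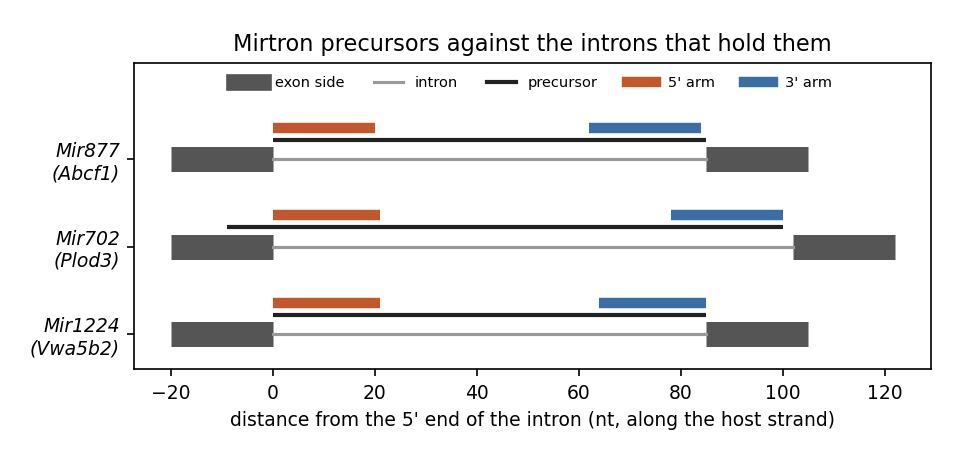
Precursors and mature arms of Mir877, Mir702 and Mir1224 along the introns that hold them, in nt from the 5′ end of the intron; dark boxes are 20 nt of the flanking sides. The 5′ arms start at the intron start in all 3, and the Mir702 precursor extends 9 nt to the left of it.

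Mir320 and Mir484 lay in no annotated intron or exon of a longer gene on their own strand. Mir320 (ENSMUSG00000065528.1, chr14:70443510-70443591, plus strand) began 63 nt upstream of a transcript start of Polr3d, which encodes a subunit of RNA polymerase III and runs the opposite way. Mir484 (ENSMUSG00000070074.1, chr16:14159626-14159692, plus strand) began 359 nt upstream of a transcript start of Marf1, a regulator of meiosis in mouse oocytes, also on the opposite strand. On its own strand the nearest coding gene start was that of Nde1, 3649 nt further on. Of 1894 genes placed in the annotation, 22 (1.16%) had as their nearest coding start one on the opposite strand with the precursor within 500 nt upstream, a distance chosen after these values were seen. Of the 22, 4 had 10 or more counts in the 2 hearts together, beside 435 of all 1973 genes counted. Mir484 and Mir320 were the highest of the 4. The other two were Mir760, near Bcar3, at 11.2 ± 1.70 CPM and Mir1934, near Mpdu1, at 1.74 ± 0.423 CPM (SD, n = 2).

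Levels are given in CPM, the reads of a gene on its own strand per 1000000 such reads of the library. Each read is a whole small RNA, so no gene length enters. The totals were 7630427 reads in replicate 2 and 6373797 in replicate 1, and 3 counts, the most a gene at 0 could plausibly have hidden, are 0.393 and 0.471 CPM. Intervals are exact 95% intervals and cover counting error only, which is not the error between animals. The tissue label could be checked against the cardiac muscle microRNAs Mir208b, Mir208a and Mir499, which ranged from 4847 to 108150 CPM over both hearts. Mir122 of liver had 44.6 and 35.8 CPM in replicates 2 and 1. Reads that matched several places are in no gene's count, and were 34.6% of replicate 2 and 35.9% of replicate 1. The 3 counted Mir124a genes of neurons had 0 counts, but they make the same mature sequence, so this checks nothing about the tissue. Muscle microRNAs with copies may be undercounted in the same way, and Mir1a-1 averaged 8.89 ± 1.63 CPM (SD, n = 2). Ranks therefore hold only among reads with 1 place in the genome. No 20 nt stretch of the 4 matched hairpins occurred in another RefSeq microRNA hairpin of the table, on either strand. All 5 genes had 0 counts on the opposite strand in both hearts.

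Mir484 was the most abundant of the 5 and a well expressed microRNA of the newborn heart. It had 18055 counts in replicate 2, or 2366 CPM (exact Poisson interval 2332 to 2401), and 15364 counts in replicate 1, or 2410 CPM (2373 to 2449). Its mean of 2388 ± 31.3 CPM (SD, n = 2) ranked 41 of the 1973 genes, above 90.6% of the 435 genes with 10 or more counts, by reads with 1 place in the genome. Genes with copies that stand below it may be undercounted. Its nearest neighbours in level were Mir106b at 2535 ± 142 CPM and Mir532 at 2431 ± 80.6 CPM above it, and Mirlet7f-2 at 2381 ± 299 CPM and Mir298 at 2352 ± 400 CPM below. The range of Mir484 over the 2 hearts overlapped those of Mir532, Mirlet7f-2 and Mir298, so 2 hearts do not settle the order among these. Mirlet7f-2 has a near-identical copy in the genome, so its count is uncertain.

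Mir320 followed at 856 CPM in replicate 2 (836 to 877, 6535 counts) and 705 CPM in replicate 1 (685 to 726, 4496 counts). Its mean of 781 ± 107 CPM ranked 83, above 80.9% of the genes with 10 or more counts. Above it stood Mir434 at 825 ± 66.0 CPM and Mir541 at 817 ± 152 CPM, and below it Mir15b at 720 ± 1.78 CPM and Mir27a at 679 ± 65.5 CPM. The ranges of all 4 overlapped that of Mir320. The count of Mir27a is uncertain, since it resembles Mir27b.

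The mirtrons were far lower. Mir877 had 68.5 CPM in replicate 2 (62.8 to 74.7, 523 counts) and 45.0 CPM in replicate 1 (40.0 to 50.6, 287 counts), a mean of 56.8 ± 16.6 CPM at rank 189. Mir672 and Mir222 stood just above it, and Mir181a-2 and Mir301b just below (Mir181a-2 with an uncertain count, as it has a copy), between 55.7 and 58.3 CPM on average. Each of these 4 differed by less than 10 CPM between the hearts, and Mir877 by more. Mir702 had 25.8 CPM in replicate 2 (22.3 to 29.7, 197 counts) and 13.2 CPM in replicate 1 (10.5 to 16.3, 84 counts), a mean of 19.5 ± 8.94 CPM at rank 235. Its neighbours were Mir212 and Mir679 above and Mir3099 and Mir1198 below, between 18.1 and 20.7 CPM on average. Both mirtrons thus lay near the middle of the detected genes, above 56.6% and 46.0% of the 435.

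Mir1224 was at the edge of detection. It had 2 counts in replicate 2 and 1 count in replicate 1, which is 0.262 CPM (0.0317 to 0.947) and 0.157 CPM (0.00397 to 0.874). Both values lie under the level of 3 counts, and 49 other genes also had 3 counts in all. It was therefore not detected above that level, and no ratio between hearts is given for it. Of the 5 genes, 4 therefore had the 10 or more counts required for the ratios between hearts.

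**Figure D2:**
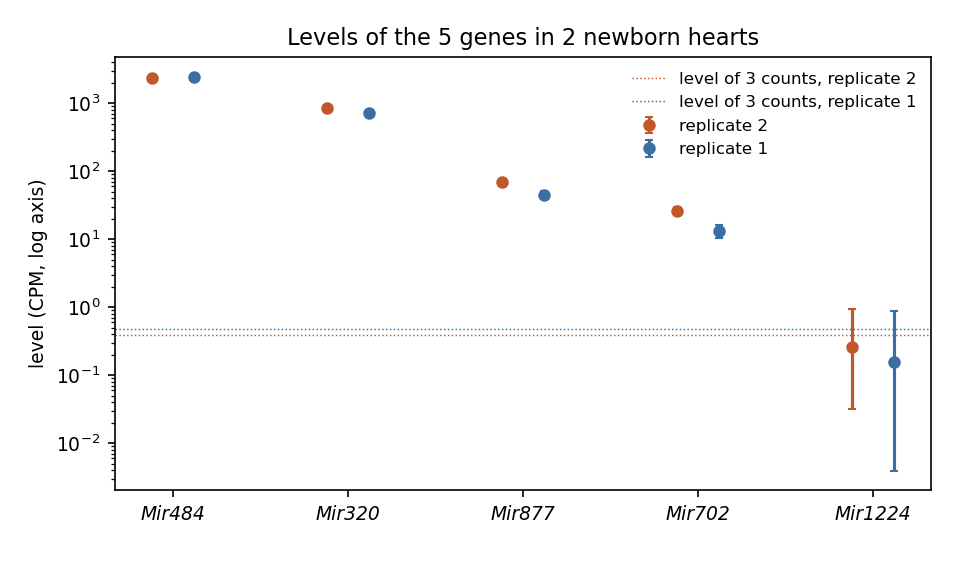
Level of each gene in CPM on a log axis, with replicate 2 left of replicate 1 and bars for the exact Poisson 95% interval; dotted lines mark 3 counts in each library. Levels fall from 2366 and 2410 CPM for Mir484 to 0.262 and 0.157 CPM for Mir1224, and the bars of the most abundant genes are smaller than the points.

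The order Mir484, Mir320, Mir877, Mir702, Mir1224 held in both hearts, and in all 4 steps the ranges of the 2 hearts did not overlap. Mir484 exceeded Mir320 by 2.76-fold in replicate 2 (exact interval 2.69 to 2.84) and 3.42-fold in replicate 1 (3.31 to 3.53). The widest step between well counted genes of the 5 lay between Mir320 and Mir877. It is a step between these genes and not between kinds of gene. Mir3102 and Mir1981, the only other intron-spanning genes above Mir877, averaged 138.8 and 90.1 CPM. Mir760 and Mir1934, placed upstream of an opposite-strand start like Mir320 and Mir484, averaged 11.2 and 1.74 CPM, below Mir702. Mir320 exceeded Mir877 by 12.5-fold in replicate 2 (11.4 to 13.7) and 15.7-fold in replicate 1 (13.9 to 17.7). Mir877 exceeded Mir702 by 2.65-fold (2.25 to 3.14) and 3.42-fold (2.67 to 4.41). The last step, Mir702 over Mir1224, was 98.5-fold in replicate 2 but with an interval from 26.9 to 819, and 84-fold in replicate 1 (14.7 to 3357). These ratios compare different sequences, and how well each is captured was not measured.

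Together the 5 genes took 0.332% of the counts in replicate 2, with a Clopper-Pearson interval of 0.328 to 0.336%. In replicate 1 they took 0.317%, with an interval of 0.313 to 0.322%, and the mean was 0.325% ± 0.0101 (SD, n = 2). Most of it was Mir484, with 71.3% of the counts of the 5 in replicate 2 and 75.9% in replicate 1. Mir320 gave 25.8% and 22.2%, and the 3 mirtrons 2.85% and 1.84%. In CPM, the mirtrons summed to 94.6 in replicate 2 and 58.4 in replicate 1, and Mir320 and Mir484 to 3223 and 3116.

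**Figure D3:**
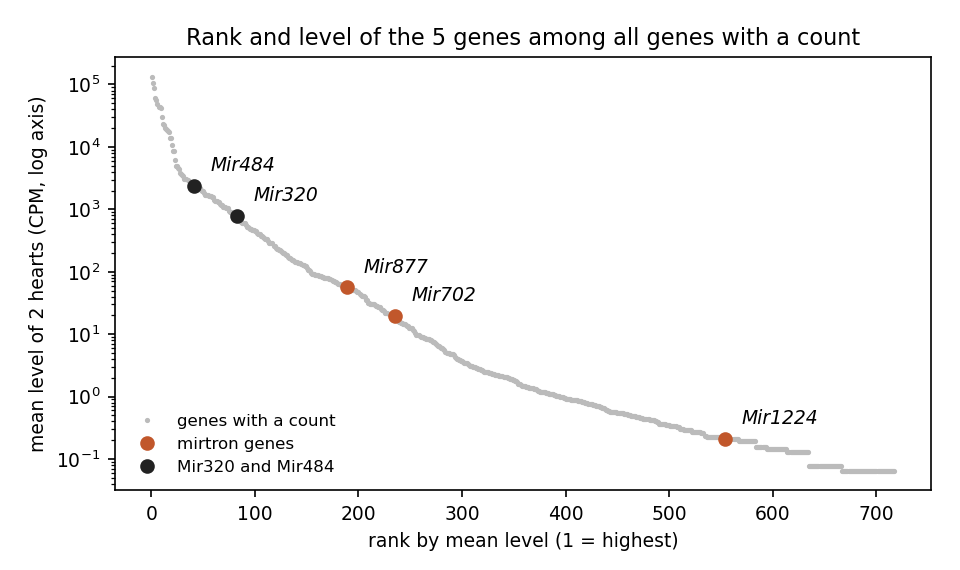
Mean level in CPM on a log axis against rank for all genes with a count. Mir484 and Mir320 stand at ranks 41 and 83, on the upper slope, Mir877 and Mir702 at ranks 189 and 235, and Mir1224 lies in the tail, where a few counts set the rank.

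Mir702 and Mir877 were both higher in replicate 2. These ratios were among the results from which the genes were proposed, so they are a description and carry no test, and with 1 library per heart they have no replicate check. In heart tissue, fewer cells that express a microRNA and less of it per cell cannot be told apart. With 0.5 added counts, Mir702 was 1.95-fold higher in replicate 2 (exact interval from the counts 1.51 to 2.56), the highest ratio of the 275 genes with 100 or more counts. Mir877 was 1.52-fold higher (1.32 to 1.76), rank 6 of the 275. Its log2 ratio was under 1.5-fold, at 0.57, without the most abundant gene in the total, and at 0.55 with the total of all reads, chosen after seeing the data. Mir320 was 1.21-fold higher (1.17 to 1.26). Mir484 differed least, with a ratio of 0.982 (0.961 to 1.00).

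Past 1.5-fold in favour of replicate 2 were thus 2 of the 4 genes, beside a background of 7.59% of the 435 genes with 10 or more counts and 2.91% of the 275 with 100 or more. Because that contrast helped choose the genes, nothing is read from this excess. In the other direction 6.21% of the 435 passed, and 0 of the 4. Both directions together came to 13.8%. The median log2 ratio of the 4 was 0.44, against 0.02 for the 435. Replicate 2 also had more reads in no gene, 2.28% against 1.93%, and more unmapped reads, 15.5% against 12.6%. The part of these differences in the ratios was not tested.

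**Figure D4:**
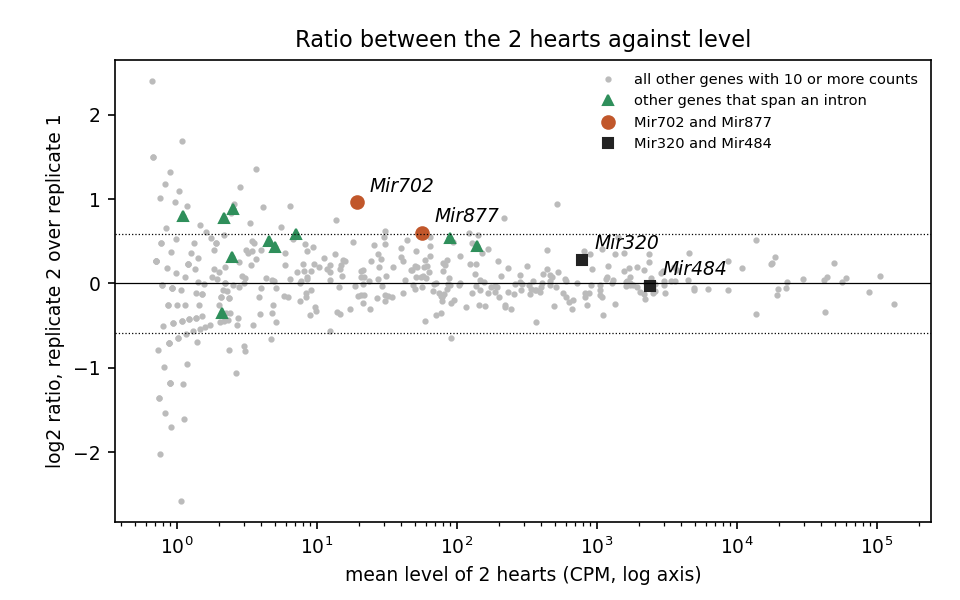
Log2 ratio of replicate 2 over replicate 1 against mean CPM for the 435 genes with 10 or more counts; dotted lines mark 1.5-fold. Mir702 and Mir877 lie above the upper line, Mir320 between it and 0, and Mir484 at 0. Of 10 other genes that span an intron (triangles), 9 lie above 0, beside 54% of the 435.

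The annotation gave a wider set in which to place the mirtrons. A gene was counted as spanning an intron when both ends of its precursor lay within 10 nt of the ends of an intron on its strand. There were 29 such genes, the 3 mirtrons and 26 others, in introns of 67 to 137 nt with a median of 85 nt. The other 643 genes inside introns, leaving out those at a splice site, lay in introns with a median of 17418 nt. Of the 26 other genes 10 had 10 or more counts, at 1.11 to 138.8 CPM, beside 435 of all 1973 genes. In both hearts 7 of the 26 had 0 counts, beside 1256 of the 1973. The difference was not tested. Mir877 and Mir702 thus ranked 3 and 4 by level among the 29.

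The 2 genes of the set above them were Mir3102 and Mir1981. Mir3102, in a 104 nt intron of Arhgef17, had 160 CPM in replicate 2 and 118 CPM in replicate 1. Mir1981, in an 82 nt intron of the mitochondrial reductase gene Marc2, had 107 CPM in replicate 2 and 73.4 CPM in replicate 1. Both were higher in replicate 2, by 1.36-fold (1.24 to 1.49) and 1.45-fold (1.30 to 1.63). Below Mir702 came Mir1982, in the intron of the antizyme gene Oaz1, at 8.52 CPM in replicate 2 and 5.65 CPM in replicate 1, and Mir7018, in the perlecan gene Hspg2, at 5.77 and 4.24 CPM. Their ratios of 1.499 (0.989 to 2.33) and 1.35 (0.824 to 2.29) have intervals that include 1.

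The other members of the set were mostly higher in replicate 2 too. Earlier results of these data were known when the 5 genes were chosen, so these ratios are a description and no independent support. Of the 10 with 10 or more counts, 9 were higher in replicate 2, with Mir3062 as the exception, beside 54% of the 435 genes. The median ratio of the 10 was 1.43, against 1.02 over the 435. Past 1.5-fold in that direction were 3 of the 10, Mir7068, Mir6958 and Mir7070, each with under 40 counts in all, beside 7.59% of the 435. In the other direction 0 of the 10 passed, beside 6.21%. Only Mir3102 and Mir1981 among the 10 had an interval that left out 1. No test was made of the set against other genes, and all ratios come from the same 2 libraries.

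**Figure D5:**
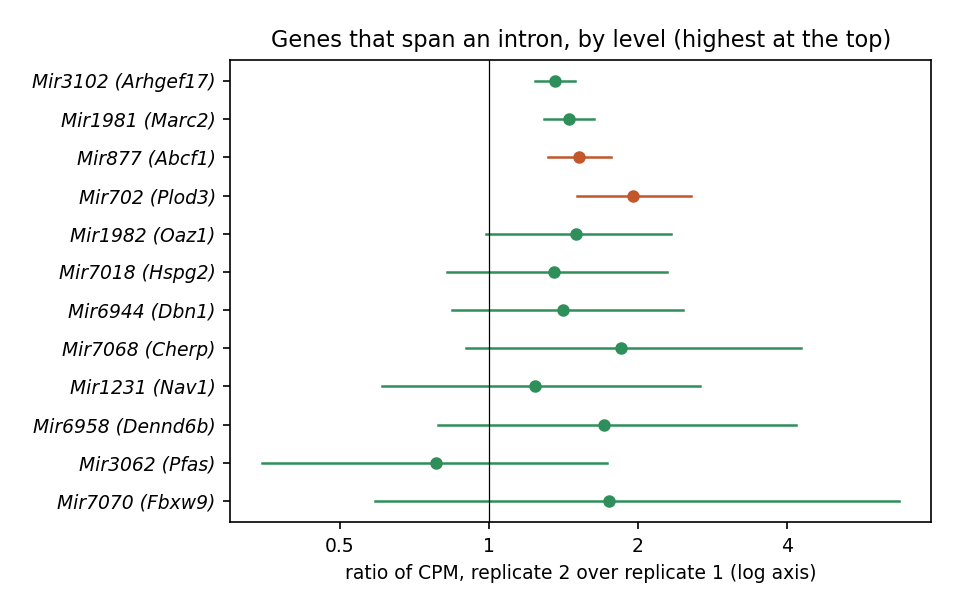
Ratio of CPM, replicate 2 over replicate 1, on a log axis for the 12 genes that span an intron and had 10 or more counts, with host genes in brackets; lines are exact 95% intervals of counting error, and Mir877 and Mir702 are in orange. Of the 10 others, in green, 9 lie to the right of 1, beside 54% of the 435 genes with 10 or more counts. The intervals widen toward the bottom, where counts are few.

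A further 196 genes shared only 1 splice site with an intron. Of these 196, 50 had 10 or more counts, beside 435 of all 1973 genes. Higher in replicate 2 were 21 of the 50, beside 54% of the 435. The median level of the 50 was 1.31 CPM, where counts are few, against 27.9 CPM over the 435. Past 1.5-fold were 8 of the 50 in favour of replicate 2 and 10 in the other direction, beside 7.59% and 6.21% of the 435. The median ratio of the 50 was 0.907, against 1.02 over the 435. The difference from the genes that span an intron was not tested. The most abundant were Mir369 at 601 ± 47.8 CPM, Mir382 at 443 ± 37.8 CPM and Mir668 at 25.8 ± 5.82 CPM. All 3 lay at introns of Mirg, the long noncoding host transcript of an imprinted cluster, and overlapped its annotated exons. Mir369 and Mir668 began 1 nt before the intron, and Mir382 ended 2 nt past it. Mir7083, in the exchange factor gene Dock6, had 7.57 ± 0.0497 CPM. Mir3064, in the RNA helicase gene Ddx5, had 5.81 ± 0.435 CPM, and Mir6900, in the respiratory chain gene Ndufa10, had 5.53 ± 1.82 CPM.

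The intron-spanning genes were also described by base composition. Of the 12 with 10 or more counts, 10 had a RefSeq hairpin, with a median GC content of 63.9%, against 50.8% in 368 of the other 423 genes. In 7 of their 10 mature 5′ arms the first bases were GU, against 2.51% of 319 other 5′ arms. AG closed 6 of their 10 mature 3′ arms, against 16.1% of 323 others. The mature arms of the 3 mirtrons had 55.0 to 61.9% G in the 5′ arms and 81.8 to 90.9% pyrimidine in the 3′ arms, against medians of 28.6% and 54.5% in the other genes. Most introns open with GU and close with a pyrimidine tract and AG. The GU, AG and pyrimidine contrasts therefore follow largely from how the genes were defined. Predicted folding energy had medians of -0.431 kcal/mol per nt in the 10 hairpins and -0.432 in the 368 others. Mir702 and Mir877 had -0.435 and -0.429 kcal/mol per nt, Mir1224 -0.504 and Mir484 -0.367.

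Over the genes with a hairpin sequence, the ratio between hearts varied little with the GC content of the hairpin. Whether base composition has a part in the ratios of the intron-spanning genes was not tested. Over 378 of the 435 genes, in 4 groups of near equal size from the lowest to the highest GC content, the median log2 ratios were 0.03, 0.04, 0.04 and 0.01. The Spearman correlation across these genes was -0.0618, given as a description, since the genes share both libraries.

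Other microRNAs with unusual routes were taken from a list of 6, of which 4 were counted, and Mir664 and Mir1839 were not among the genes counted. Mir451a, a blood cell microRNA cut by Ago2 in place of Dicer, had 1237 CPM in replicate 2 and 931 CPM in replicate 1, between Mir484 and Mir320 in level in both hearts. Mir1983, which comes from a transfer RNA, had 607 CPM in replicate 2 and 583 CPM in replicate 1, below Mir320 in both. The remaining 2 were Mir3102 and Mir1981. All 4 had ratios above 1, from 1.04 for Mir1983 to 1.45 for Mir1981, beside 54% of the 435 genes. Earlier results of these data were known when the list was chosen, and Mir3102 and Mir1981 were already counted among the intron-spanning genes. Nothing is read from this count. The interval of Mir1983, 0.997 to 1.09, includes 1. Past 1.5-fold were 0 of the 4, beside 7.59% of the 435.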

How the data were processed

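The deposited tables hold raw read counts per gene in 3 columns without a header. Per the text that accompanies the deposited files, build mm10 and annotation M4 of GENCODE underlie both tables, each of which derives from its own alignment. The sources used here give no aligner, counter or trimming. In every gene row the first column of counts was the sum of the other two; the second, with 92.8% and 92.9% of gene counts in replicates 2 and 1, was read as the strand of the gene. Totals leave out the rows for reads outside genes. Positions came from GENCODE M21 on the same build, where 1894 of 1973 identifiers were found; the other 79 had 0 counts. From the deposited counts, CPM, exact Poisson and Clopper-Pearson intervals, and ratios with 0.5 added counts for genes with 10 or more counts together were computed. With 1 group of 2 hearts no count model was fitted and no p-value is given. The ratio and its interval were checked on simulated data. The genes and the lists were chosen with earlier results of these data known. Named genes were the 5, the 2 nearest in level on each side (not for Mir1224), the 10 most abundant others that span an intron or share 1 splice site, and the list of 6; markers of tissue were also fixed, and the rest were named after their values were seen. Alternatives were other strands, totals, minimums, folds, added counts, scalings and tolerances, and each heart alone. Tools were Python 3.11.15, pandas 2.3.3, NumPy 2.4.6, SciPy 1.17.1, matplotlib 3.10.9, ViennaRNA 2.7.2, R 4.3.3, edgeR 4.0.16 (TMM factors only) and DESeq2 1.42.0 (size factors only).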

Additional observations from a re-analysis of the deposited data

How the results depend on the processing

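The number of genes past 1.5-fold between the hearts, 60 of 435 in either direction, depended on the counts admitted. It was 278 with 1 or more counts, 9 with 100 or more, 39 with 5 added counts and 22 at 2-fold, and stayed within 58 to 64 under the other strands, totals and scalings tried. The summed share of the 5 genes, 0.325%, was 0.301% with both strands counted, 0.374% without the most abundant gene in the total and 0.146% of all reads, the last chosen after seeing the data; in all 3 only the denominator moved. The order of the 5 genes was the same in each heart alone. With 20 nt allowed at the intron ends 48 genes spanned an intron, and with 2 nt 22 did, of which Mir702 was not part. Under TMM and DESeq2 factors and the total of all reads the log2 ratio stayed between 0.91 and 0.97 for Mir702. It stayed between 0.55 and 0.61 for Mir877, 0.22 and 0.28 for Mir320 and -0.08 and -0.03 for Mir484. Under each scaling 9 of the 10 other intron-spanning genes stayed above 0. The share of the 435 genes above 0 was 51.3% under TMM or DESeq2 factors and 45.1% with the total of all reads. With all reads as the total Mir877 fell below 1.5-fold, as it did without the most abundant gene, at 0.57. Set against the median of genes with a hairpin GC content of 57.3 to 80%, a setting chosen after seeing the data, Mir702 had 0.95 and Mir877 0.59. The part of base composition in these ratios was not tested. No paired analysis was possible because the 2 hearts form 1 group. Counting error limits Mir1224 and the intron-spanning genes with few counts.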
